A study of Mus musculus with 2 samples.

Results

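Thymus cells that lacked surface Flt3 and carried surface Ly6d were compared with cells at the opposite end of the same sorting scheme, which carried Flt3 and neither Ly6d nor HSA. The cells were chosen by the population that the authors assigned to each barcode from its hashtag, an antibody-borne barcode that marks the sort. They comprised 847 Flt3- Ly6d+ cells and 1412 Flt3+ Ly6d- HSA- cells, together 2259 of the 8293 barcodes of the series, of which 345 had no population. Both fractions came from thymus of C57BL/6 mice homozygous for a yellow fluorescent reporter allele of Bcl11b (Bcl11b yfp/yfp), so neither group had an unmodified Bcl11b locus; the labels do not state the number, age or sex of the mice. Both fractions were sorted as live (7AAD-) cells lacking lineage markers (Lin-), with Kit and without CD25 or the Bcl11b reporter. The Flt3- Ly6d+ gate did not use HSA, the CD24 antigen, whereas the Flt3+ Ly6d- HSA- gate excluded it. Values of the other fractions, Flt3- Ly6d- HSA- (1205 cells) and Flt3+ HSA+ (1182 cells), and of a broader Lin- 7AAD- Kit+ control sort (3302 cells), are given only where they place the 2 ends.

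As background, early thymic progenitors are the first T-cell precursors to be found in the thymus. They arrive with multilineage features, depend on Kit and Notch signals, and begin to switch on T-lineage regulators such as TCF-1 and GATA3 before CD25 appears and Bcl11b commits them to the T lineage. Flt3 is a cytokine receptor of multipotent and lymphoid-primed progenitors, and Ly6d is a surface antigen that marks lymphoid-biased cells in bone marrow.

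There was 1 sort of each kind in 1 pooled cDNA library, so no difference between the sorts could be set against the spread of repeated sorts, and no test between them was possible. RNA molecules were counted as unique molecular identifiers (UMIs), summed over the cells of a sort and scaled to 1000000 (CPM). The sums were 10616041 UMIs in Flt3- Ly6d+ cells and 24624463 UMIs in Flt3+ Ly6d- HSA- cells, with medians of 11404 and 15478 UMIs and of 3209 and 3730 genes per cell. Shares of cells with a UMI of a gene were taken after thinning each cell to 3000 UMIs, which left 826 Flt3- Ly6d+ and 1405 Flt3+ Ly6d- HSA- cells. Values in parentheses are 95% intervals of ratios, of CPM (Poisson) or of shares (Clopper-Pearson), and they cover counting error only. A gene passed the size rule when its ratio reached 2 and the higher sort had 20 CPM or more, with detection in 2% or more of its thinned cells. Free RNA can put UMIs into cells that do not express a gene. Shares were therefore read beside those of 241 granulocyte-class cells from all 5 sorts (median depth 34315 UMIs, thinned alike). These cells may also hold RNA of their own: a Cpa3 UMI was found in 22.4% of them and 6.05% of Flt3+ Ly6d- HSA- cells. Their shares therefore do not set a level of free RNA.

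That class, cells with at least 7 of 14 granulocyte and monocyte markers detected at full depth, was unevenly spread over the ends. It held 1 Flt3- Ly6d+ cell (0.118% of cells, 0.203% of UMIs) and 67 Flt3+ Ly6d- HSA- cells (4.75% of cells, 10.4% of UMIs), whose median depth was 36559 UMIs. Just outside the threshold, with 6 markers, lay 2 Flt3- Ly6d+ and 6 Flt3+ Ly6d- HSA- cells, and just inside it, with 7, lay 1 and 5. Results are therefore given with all cells and without this class.

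Of 5773 genes at 20 CPM or more in either sort, 74 (1.28%) were at least 2-fold higher and 95 (1.65%) at least 2-fold lower in Flt3- Ly6d+ cells. Without the granulocyte class, 67 of 5761 genes (1.16%) were higher and 75 (1.30%) lower. Higher in both settings were 61 genes, which are 82.4% of the calls with all cells and 91.0% of those without the class. Lower in both were 70 genes, 73.7% of the calls with all cells and 93.3% of those without the class. T-lineage regulators, the CD25 gene, Fgf3 and an integrin lay on the higher side, and mitotic genes, Flt3, Ccr9, Hopx and Hmga2 on the lower side, as shown by the plot of levels in the 2 sorts.

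**Figure D1:**
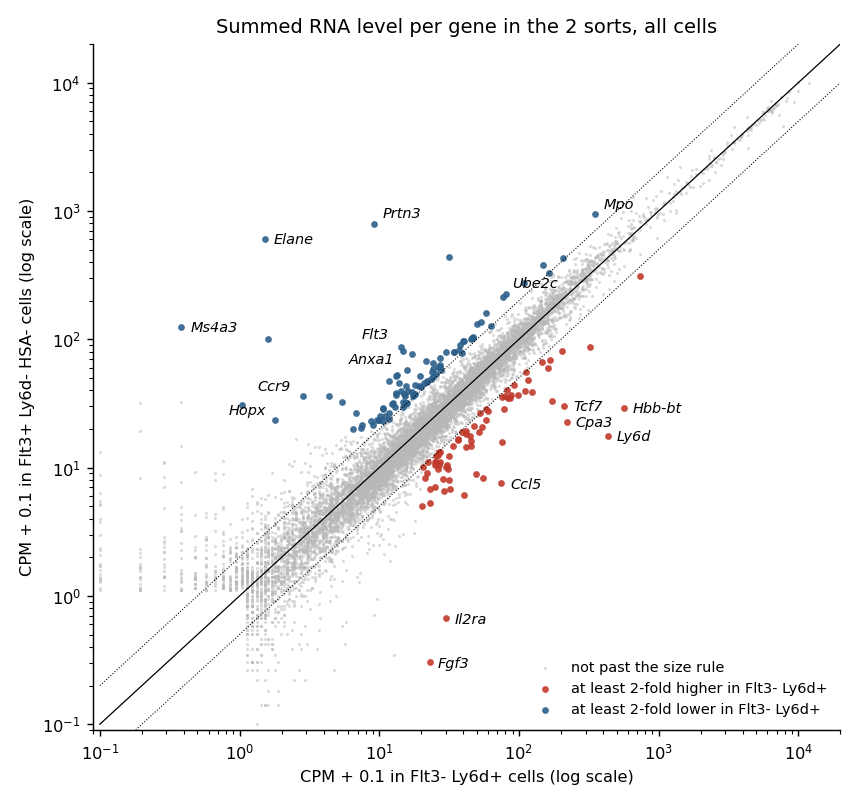
Summed level of each gene in Flt3- Ly6d+ cells (x axis, CPM + 0.1, log scale) against Flt3+ Ly6d- HSA- cells (y axis, the same units), all cells, 1 point per gene. Red points are the 74 genes at least 2-fold higher and blue points the 95 genes at least 2-fold lower in Flt3- Ly6d+ cells by the size rule; dotted lines mark 2-fold. Elane, Prtn3 and Ms4a3 lie far above the diagonal in this plot, and 98.2% to 99.6% of their UMIs in the Flt3+ Ly6d- HSA- sort came from the granulocyte class.

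RNA of the gate genes was compared with the labels first. Ly6d stood at 431 CPM (419 to 444) in Flt3- Ly6d+ cells and 17.5 CPM (15.9 to 19.3) in Flt3+ Ly6d- HSA- cells, with a UMI in 45.8% (42.3 to 49.2) and 4.48% (3.46 to 5.70) of cells; 0.830% of class cells had one. Flt3 RNA, which encodes the receptor gated out of the first sort, stood at 14.2 CPM in Flt3- Ly6d+ cells against 87.7 CPM in Flt3+ Ly6d- HSA- cells, and in 3.87% (2.67 to 5.43) against 25.6% (23.4 to 28.0) of cells. The share of Flt3- Ly6d+ cells with a Flt3 UMI was close to the 3.32% of class cells, and the part of free RNA in it was not tested. Cd24a, which encodes HSA, was 2.52-fold (2.37 to 2.68) higher, at 203 against 80.4 CPM, in the sort that was not gated on it. Kit, required in both gates, was 1.73-fold (1.61 to 1.87) higher, at 112 against 64.9 CPM. Bcl11b, whose reporter was excluded in both gates, had 37 UMIs in Flt3- Ly6d+ cells, 81.1% of them in 10 cells, and 7 UMIs in Flt3+ Ly6d- HSA- cells.

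The largest ratios on the higher side belonged to 2 genes that were almost silent in Flt3+ Ly6d- HSA- cells. Fgf3, a secreted fibroblast growth factor, had 244 UMIs or 23.0 CPM (20.2 to 26.1) in Flt3- Ly6d+ cells and 5 UMIs or 0.203 CPM (0.0659 to 0.474) in Flt3+ Ly6d- HSA- cells, a 113-fold difference (47.8 to 352). It was found in 4.96% (3.59 to 6.67) and 0.0712% (0.00180 to 0.396) of cells, and in 0 of the 241 class cells, and 10 cells held 27.0% of its UMIs in the Flt3- Ly6d+ sort. Il2ra, which encodes CD25, the receptor subunit used to gate against later cells, had 318 UMIs or 29.95 CPM (26.8 to 33.4) in Flt3- Ly6d+ cells and 14 UMIs or 0.569 CPM (0.311 to 0.954) in Flt3+ Ly6d- HSA- cells, a 52.7-fold difference (30.9 to 97.5). Its RNA was thus present in 8.11% (6.34 to 10.2) of cells sorted as CD25-, against 0.214% (0.0441 to 0.623) of Flt3+ Ly6d- HSA- cells and 0.415% of class cells. Without the class, the ratios of Fgf3 and Il2ra were 127-fold and 50.9-fold. A Tcf7, Il2ra or Fgf3 UMI was found in 49.4% (45.9 to 52.9) of Flt3- Ly6d+ and 11.3% (9.71 to 13.1) of Flt3+ Ly6d- HSA- cells, and Il2ra and Fgf3 together in 9 of 826 and 0 of 1405 cells.

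Fgf3 lies on chromosome 7 at 144838083 to 144844436 and Il2ra on chromosome 2 at 11642807 to 11693193 (GENCODE M21, GRCm38, the mm10 assembly). Their promoter windows, from 250 bases before to 50 bases after the RefSeq start (GRCm38.p6), are shown because these 2 genes had the highest ratios on the higher side. They span chr7:144838362-144838661 and chr2:11642542-11642841, both on the + strand. Capitals mark matches on either strand to CCAAT, the CCAAT box, and TTTGAA, the cell cycle genes homology region (CHR), motifs that are used further on for the mitotic genes; the 2 motifs do not overlap each other in these windows.
Fgf3: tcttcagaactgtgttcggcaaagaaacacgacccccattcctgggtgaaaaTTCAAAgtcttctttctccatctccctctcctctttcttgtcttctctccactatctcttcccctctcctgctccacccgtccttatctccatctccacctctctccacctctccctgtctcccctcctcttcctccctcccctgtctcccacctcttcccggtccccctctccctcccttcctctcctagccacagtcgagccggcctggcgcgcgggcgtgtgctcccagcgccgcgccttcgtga
Il2ra: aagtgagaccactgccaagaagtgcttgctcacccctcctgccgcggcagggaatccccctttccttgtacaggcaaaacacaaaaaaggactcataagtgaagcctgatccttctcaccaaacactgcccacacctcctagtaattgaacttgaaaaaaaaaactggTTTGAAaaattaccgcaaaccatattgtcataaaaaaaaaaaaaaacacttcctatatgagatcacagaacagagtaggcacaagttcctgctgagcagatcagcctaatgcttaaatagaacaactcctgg
Each window held 1 CHR match and no CCAAT match, beside a CHR match in 18.1% of the 27025 RefSeq promoter windows used, 1 per gene symbol.

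T-lineage regulators stood higher in Flt3- Ly6d+ cells. Of 13 measured (5 CPM or more in either sort), 7 were at least 1.5-fold higher and 0 lower, with a median log2 ratio of 0.63, against 7.14% of 9231 genes higher, 6.13% lower and a median of 0.04 over all genes. Tcf7, which encodes the Notch-induced factor TCF-1, stood at 211 CPM (202 to 220) in Flt3- Ly6d+ cells and 30.2 CPM (28.0 to 32.4) in Flt3+ Ly6d- HSA- cells, 7.00-fold (6.44 to 7.61) apart. It was detected in 43.6% (40.2 to 47.0) of Flt3- Ly6d+ cells and 11.2% (9.57 to 12.9) of Flt3+ Ly6d- HSA- cells, against 3.32% of class cells. Zfpm1, a cofactor of GATA factors, was 3.59-fold (2.95 to 4.38) higher at 24.8 against 6.90 CPM, and Ikzf2 (Helios), a zinc finger protein of the Ikaros family, 3.21-fold (2.95 to 3.49) at 124 against 38.7 CPM.

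Gata3, which T-cell development requires, was 2.20-fold (1.91 to 2.53) higher, at 36.7 against 16.7 CPM, and the HMG-box factor Tox 2.10-fold (1.93 to 2.29), at 91.7 against 43.7 CPM. Both were under 2-fold without the granulocyte class, at 1.97-fold and 1.89-fold; the class held 0% and 0.0930% of their UMIs in the Flt3+ Ly6d- HSA- sort, beside 10.4% of all UMIs. The Runt factors Runx3 (1.63-fold) and Runx1 (1.55-fold) completed the 7. Myb (1.29-fold), Tcf12 (1.30-fold), Ikzf1 (1.24-fold), Tcf3 (1.14-fold), Gfi1 (1.01-fold) and Ets1 (0.854-fold) lay within 1.5-fold, and Lef1 and Ikzf3 had at most 3 UMIs in either sort. Without the class, 6 of 13 were higher and 0 lower, with a median of 0.56, against 6.35% of 9219 genes higher, 5.28% lower and a median of 0.03 over all genes. Runx1 was then 1.47-fold higher.

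Notch targets and receptor signalling genes did not move as 1 group. Of 7 measured Notch receptors and targets, 2 were at least 1.5-fold higher and 0 lower (median 0.31; 1 and 0 without the class, median 0.18), beside 7.14% and 6.13% of all genes (6.35% and 5.28% without the class). Dtx1, an E3 ligase of the Notch pathway, had 101 UMIs in Flt3- Ly6d+ cells and 21 in Flt3+ Ly6d- HSA- cells and was 11.2-fold (6.92 to 18.8) higher, and Hes1, a transcriptional repressor, was 1.56-fold higher (1.40-fold without the class). Notch1 stood at 167 against 119 CPM, and the ratios of Hes5 and Nrarp were 1.15 and 1.24. Of 13 T-cell receptor and signalling components, 4 were higher and 3 lower (median 0.19; 4 and 4 without the class, median 0.07), beside the same shares of all genes. The higher genes were Cd7, a surface antigen of T and NK cells (2.19-fold, 146 against 66.7 CPM), the receptor Cd5 (2.32-fold), the receptor zeta chain Cd247 (2.09-fold) and the adaptor Lcp2 (1.77-fold). The lower genes were Skap1, an adaptor (0.356-fold), Thy1 (0.482-fold) and Dntt, the terminal transferase that adds bases at receptor gene junctions, which stood at 638 against 1008 CPM. Cd3d, Cd3e, Cd3g and Ptcra had at most 10 UMIs in either sort.

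Cytokine and homing receptors split as well. Of 15 measured cytokine receptors, 5 were at least 1.5-fold higher and 3 lower (median 0.29; 5 and 2 without the class, median 0.17), beside 7.14% of all genes higher and 6.13% lower (6.35% and 5.28% without the class). Besides Il2ra and Kit the higher genes were Il17rb (3.54-fold), Il7r, the interleukin-7 receptor (1.77-fold, 29.6 against 16.7 CPM), and Tgfbr1 (1.70-fold); the lower ones were Flt3, Csf2rb (0.369-fold) and Il6ra (0.511-fold). The share of the Il6ra UMIs of the Flt3+ Ly6d- HSA- sort held by the class was 36.2%, and without it the ratio was 0.718. Itga4, the integrin alpha-4 chain, was 3.71-fold (3.52 to 3.92) higher, at 325 against 87.5 CPM, and was found in 58.6% of Flt3- Ly6d+ and 23.1% of Flt3+ Ly6d- HSA- cells. Its partner chain Itgb7 was 1.997-fold higher at 81.7 against 40.9 CPM, whereas its other partner Itgb1 stood at 68.6 against 72.1 CPM. Of 14 measured homing and adhesion receptors these 2 were higher and 3 were lower, Ccr9, Ccr7 (0.201-fold) and Ccr2 (0.450-fold), with a median of -0.11 and beside those same shares. Class cells accounted for 59.9% of Ccr2 UMIs in Flt3+ Ly6d- HSA- cells; without them Ccr2 was level at 1.01-fold, Cd44 was lower in its place (0.651-fold) and the median was -0.03.

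Other named genes on the higher side came from several functions. Cpa3, a carboxypeptidase known from mast cells, stood at 219 CPM in Flt3- Ly6d+ cells and 22.7 CPM in Flt3+ Ly6d- HSA- cells (9.64-fold, 8.79 to 10.6) and was found in 40.9% and 6.05% of cells, beside 22.4% of class cells. The defining mast cell and basophil markers Cma1, Tpsab1, Fcer1a and Prss34 were at 0 UMIs in both sorts, Tpsb2 had 1 and 0 UMIs and Ms4a2 0 and 2, and the summed level of the 10-gene list was 232 CPM in Flt3- Ly6d+ cells and 42.1 CPM in Flt3+ Ly6d- HSA- cells, of which Cpa3 alone gave 219 and 22.7 CPM. Of the list, 3 genes were measured (median log2 ratio -0.18): Cpa3 was higher, Hdc, the histidine decarboxylase gene, was lower at 4.33 against 8.89 CPM, and Mcpt8, a basophil protease gene, stood at 6.50 against 7.35 CPM. Without the class Hdc was under 5 CPM in both sorts, and Cpa3 and Mcpt8 (6.51 against 1.45 CPM) were both higher (median 2.73). A Tcf7 and a Cpa3 UMI shared a cell in 19.4% (16.7 to 22.2) of Flt3- Ly6d+ cells and 1.49% (0.928 to 2.28) of Flt3+ Ly6d- HSA- cells. The chemokine Ccl5 was 9.98-fold (8.48 to 11.8) higher at 74.1 against 7.43 CPM, and the NK receptor Cd160 6.72-fold at 55.4 against 8.24 CPM. Scin, an actin-severing protein, was 5.18-fold higher at 171 against 33.1 CPM. The neuropeptide gene Qrfp (6.74-fold), the retinal reductase Dhrs3 (5.55-fold), the mucin Muc13 (4.79-fold), the mTOR inhibitor Deptor (4.76-fold) and Olfm5 (4.55-fold) followed. Cdkn1a, the cyclin-dependent kinase inhibitor p21, was 4.44-fold (3.57 to 5.54) higher at 23.1 against 5.20 CPM. Muc13 and Cdkn1a stood at 8.55-fold and 5.26-fold without the class, which held 49.7% and 24.2% of their UMIs in the Flt3+ Ly6d- HSA- sort.

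Hbb-bt, a beta globin, stood at 563 CPM in Flt3- Ly6d+ cells and 29.0 CPM in Flt3+ Ly6d- HSA- cells (19.4-fold, 17.9 to 20.98). A UMI was found in 19.0% (16.4 to 21.9) and 4.70% (3.65 to 5.94) of cells, beside 5.81% of class cells, and 10 cells held 29.1% and 53.0% of its UMIs. The near-identical Hbb-bs had 1 and 2 UMIs, and the alpha globins Hba-a1 and Hba-a2 had 0 UMIs in both sorts; because reads of near-identical globin copies can be split or dropped in counting, the identity of the copy is uncertain. Of the other erythroid and megakaryocyte markers, Itga2b, the integrin alpha chain CD41, was measured, with 134 UMIs in Flt3- Ly6d+ cells and 6 in Flt3+ Ly6d- HSA- cells (51.8-fold, 23.2 to 144), and found in 3.27% and 0.0712% of cells, beside 3.32% of class cells. The part of red cell RNA in these values was not tested.

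**Figure D2:**
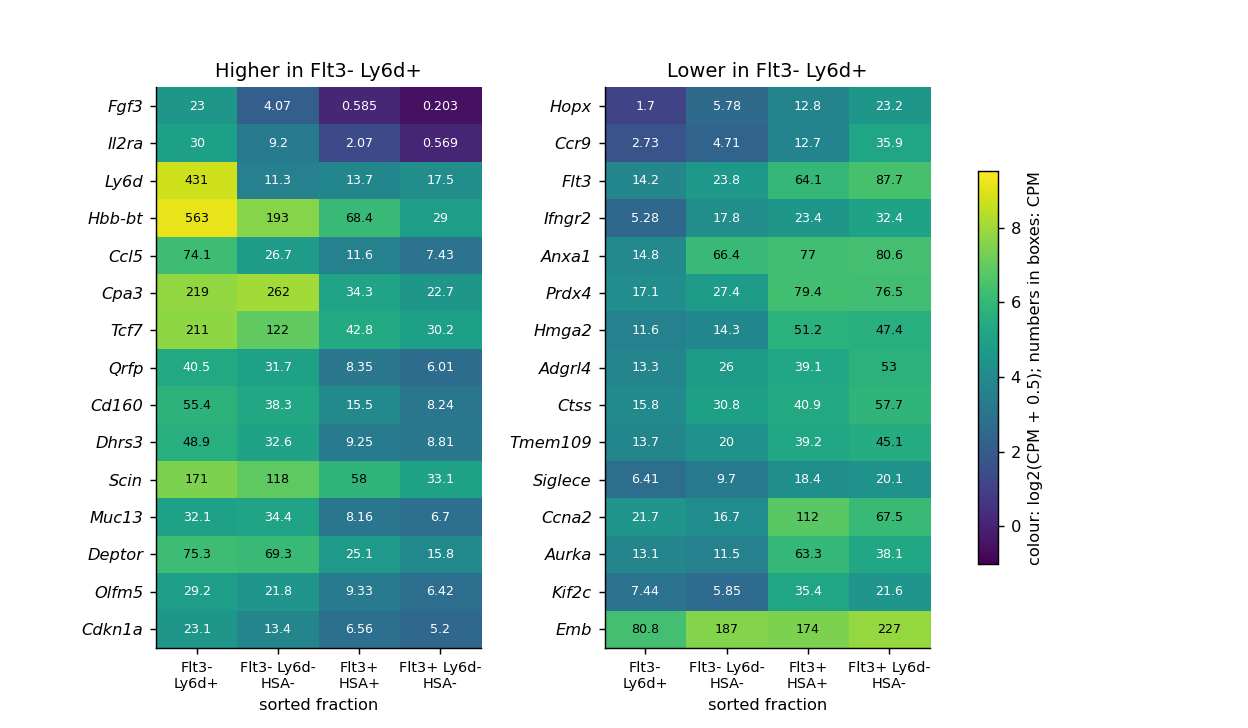
Summed levels (CPM, printed in each box and coloured on a log2 scale) of the 15 higher and 15 lower genes with the largest differences out of the 61 and 70 called in both settings, across the 4 gated fractions ordered from Flt3- Ly6d+ at the left to Flt3+ Ly6d- HSA- at the right, all cells. Tcf7 stood at 211, 122, 42.8 and 30.2 CPM in this order, while Ly6d stood at 431 CPM in the Flt3- Ly6d+ sort and at 11.3 to 17.5 CPM in the other 3.

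On the lower side, Hopx, a homeodomain protein without DNA binding, had 18 UMIs or 1.70 CPM (1.01 to 2.68) in Flt3- Ly6d+ cells and 571 UMIs or 23.2 CPM (21.3 to 25.2) in Flt3+ Ly6d- HSA- cells, 13.7-fold lower (8.58 to 23.2). Ccr9, a receptor for the thymic chemokine CCL25, had 29 UMIs or 2.73 CPM (1.83 to 3.92) in Flt3- Ly6d+ cells and 885 UMIs or 35.9 CPM (33.6 to 38.4) in Flt3+ Ly6d- HSA- cells, 13.2-fold lower (9.10 to 19.8). Ccr9 was found in 0.726% (0.267 to 1.57) of Flt3- Ly6d+ cells, 9.89% (8.38 to 11.6) of Flt3+ Ly6d- HSA- cells and 0 of the 241 class cells. A Ccr9, Hopx or Flt3 UMI was present in 4.72% (3.38 to 6.398) of Flt3- Ly6d+ and 36.3% (33.8 to 38.9) of Flt3+ Ly6d- HSA- cells. The interferon gamma receptor chain Ifngr2 was 6.14-fold lower at 5.28 against 32.4 CPM, and the other chain, Ifngr1, stood at 65.3 against 87.5 CPM and at 65.4 against 65.4 CPM without the class. The peroxiredoxin Prdx4 was 4.46-fold lower at 17.1 against 76.5 CPM, the adhesion receptor Adgrl4 3.99-fold, the cysteine protease Ctss 3.64-fold, Tmem109 3.30-fold, Siglece, a sialic acid receptor, 3.13-fold, and Emb, embigin, 2.81-fold. Anxa1 was 5.45-fold lower with all cells and 3.05-fold lower without the class, which held 49.7% of its UMIs in the Flt3+ Ly6d- HSA- sort.

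Ccr9 (chromosome 9, 123678439 to 123784330) and Flt3 (chromosome 5, 147330741 to 147400489) are shown as the lower counterparts, with the RefSeq windows chr9:123766961-123767260 on the + strand and chr5:147400440-147400739 on the - strand, written along the gene.
Ccr9: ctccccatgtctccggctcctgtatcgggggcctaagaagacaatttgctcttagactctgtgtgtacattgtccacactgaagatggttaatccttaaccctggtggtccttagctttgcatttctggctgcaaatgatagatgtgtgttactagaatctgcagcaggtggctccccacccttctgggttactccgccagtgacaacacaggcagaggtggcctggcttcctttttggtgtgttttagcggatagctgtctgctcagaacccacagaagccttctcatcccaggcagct
Flt3: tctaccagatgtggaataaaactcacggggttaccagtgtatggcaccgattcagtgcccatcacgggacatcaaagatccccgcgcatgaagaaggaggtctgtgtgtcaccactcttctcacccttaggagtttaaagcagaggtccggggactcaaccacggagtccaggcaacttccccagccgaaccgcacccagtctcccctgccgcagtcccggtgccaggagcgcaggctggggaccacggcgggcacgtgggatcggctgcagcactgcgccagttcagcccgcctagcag
Neither window held a CCAAT or a CHR match.

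Stem and progenitor regulators divided into groups. Of 15 measured, 5 were at least 1.5-fold lower, 2 higher and 8 within 1.5-fold, with a median log2 ratio of -0.06, beside 6.13% of all genes lower and 7.14% higher. Without the class the counts were the same and the median was -0.19, beside 5.28% lower and 6.35% higher. Hmga2, a chromatin protein of fetal and stem cells, was 4.09-fold (3.39 to 4.96) lower, at 11.6 against 47.4 CPM, and was found in 2.54% of Flt3- Ly6d+ and 12.1% of Flt3+ Ly6d- HSA- cells, beside 0 of the 241 class cells. The homeobox genes Hoxa9 (2.44-fold) and Meis1 (0.420 times the level), Lmo2, a bridging protein of stem cell factor complexes (2.03-fold), and Cd34, a progenitor surface antigen (1.74-fold, 268 against 466 CPM), were lower too. In contrast Spi1 (PU.1) stood at 202 against 176 CPM, Lyl1 at 145 against 128, Hhex at 193 against 160, Mef2c at 325 against 353 and Bcl11a at 177 against 185 CPM, all within 1.5-fold. Gfi1b, a transcriptional repressor that acts within the erythroid and megakaryocyte lineages, was 2.92-fold (2.48 to 3.46) higher and Nfe2 1.86-fold (1.69 to 2.04) higher.

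**Figure D3:**
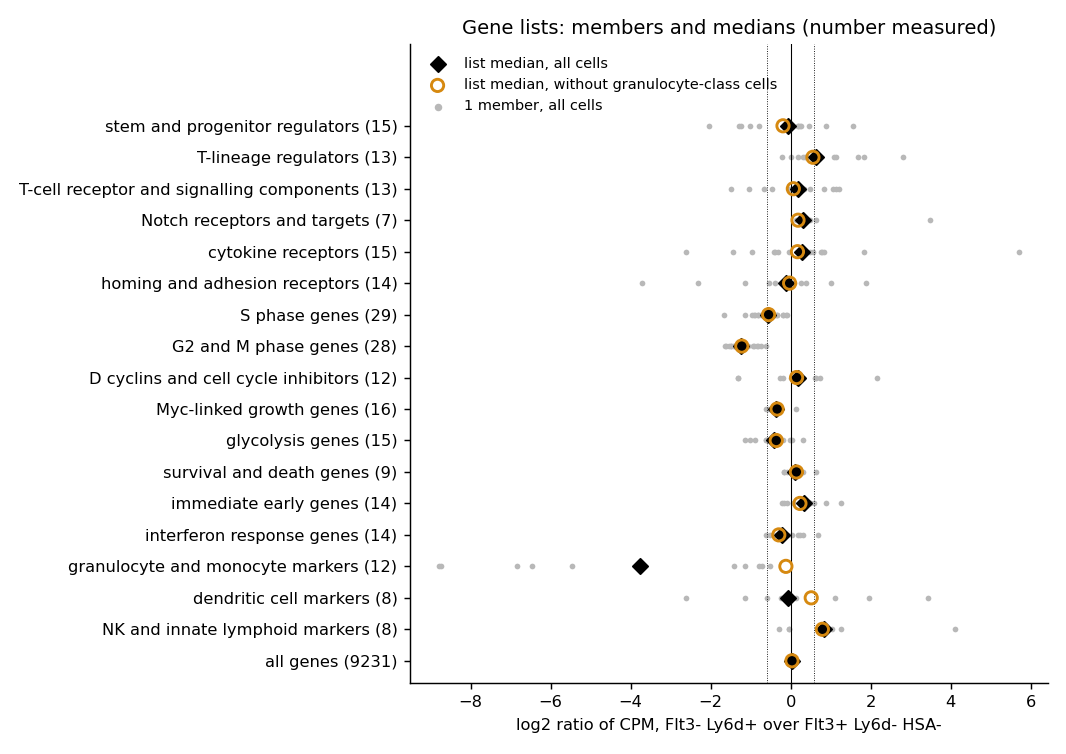
Log2 ratio of CPM, Flt3- Ly6d+ over Flt3+ Ly6d- HSA-, for the members of each list with at least 5 measured members (grey points, all cells), with the list median over all cells (black diamonds) and without the granulocyte class (open orange circles); dotted lines mark 1.5-fold. The G2 and M phase median lies at -1.23 with and -1.22 without the class, while that of granulocyte and monocyte markers lies at -3.77 with and -0.12 without it.

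Cell cycle RNA was lower in Flt3- Ly6d+ cells. Each of the 28 measured genes of G2 and M phase was lower by 1.5-fold or more, with a median log2 ratio of -1.23, against 6.13% of all genes; without the class 27 of 28 were lower (median -1.22), the exception being Kif20b at 0.687-fold. Ccna2 (cyclin A2) stood at 21.7 against 67.5 CPM (3.11-fold lower, 2.71 to 3.59), the mitotic kinase Aurka at 13.1 against 38.1 CPM (2.91-fold lower), the mitotic kinesin gene Kif2c at 7.44 against 21.6 CPM, Ube2c, which helps the anaphase complex to degrade cyclins, at 76.6 against 214 CPM, and the proliferation marker Mki67 at 79.0 against 153 CPM. Of 29 S phase genes, 14 were lower and 0 higher (median -0.56; 13 and 0 without the class, median -0.55), among them Rrm2 (0.451-fold) and Tyms (0.509-fold), both needed for DNA precursors, while the replicative helicase gene Mcm6 (0.875-fold) stayed within 1.5-fold. Cells with 5 or more UMIs of these G2 and M phase genes among 3000 made up 10.8% (8.74 to 13.1) of Flt3- Ly6d+ cells and 30.1% (27.7 to 32.6) of Flt3+ Ly6d- HSA- cells, and cells with 0 such UMIs 54.6% and 34.0%. Of 12 measured D cyclins and inhibitors, 4 were higher, Cdkn1a, Btg1 (1.66-fold), Cdkn2d (1.54-fold) and Cdk6 (1.53-fold), and 2 lower, the inhibitor Cdkn2c (0.403-fold) and Ccnd1, cyclin D1 (2.48-fold lower, 15.9 against 39.5 CPM), beside 7.14% of all genes higher and 6.13% lower; without the class Cdk6 was 1.48-fold higher.

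Promoter windows of G2 and M phase genes were read for both motifs named above, as a description with no test. Of the 25 list members with a RefSeq window, 84% held CCAAT, 80% held TTTGAA and 72% held both, on either strand. The shares among the 27025 promoter windows used were 37.9%, 18.1% and 7.12%. Among the genes lower in Flt3- Ly6d+ cells in both settings, 53 of 70 had a window and 39.6% of these held both motifs. Members of the G2 and M phase list, such as Aurka, are among these lower genes, so the sets overlap. Among the genes higher in both settings, 47 of 61 had a window and 0 held both motifs. The 3 members of the mitotic list with the lowest ratios among those with a window and past the size rule are shown, Aurka (chr2:172370521-172370820, - strand), Birc5 (chr11:117848987-117849286, + strand) and Ube2c (chr2:164769679-164769978, + strand), written along the gene.
Aurka: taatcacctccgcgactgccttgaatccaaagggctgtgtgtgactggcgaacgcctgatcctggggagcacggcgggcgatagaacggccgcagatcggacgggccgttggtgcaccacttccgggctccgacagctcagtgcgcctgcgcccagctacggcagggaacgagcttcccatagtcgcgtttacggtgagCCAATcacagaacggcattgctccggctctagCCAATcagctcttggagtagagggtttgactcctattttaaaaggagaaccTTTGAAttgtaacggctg
Birc5: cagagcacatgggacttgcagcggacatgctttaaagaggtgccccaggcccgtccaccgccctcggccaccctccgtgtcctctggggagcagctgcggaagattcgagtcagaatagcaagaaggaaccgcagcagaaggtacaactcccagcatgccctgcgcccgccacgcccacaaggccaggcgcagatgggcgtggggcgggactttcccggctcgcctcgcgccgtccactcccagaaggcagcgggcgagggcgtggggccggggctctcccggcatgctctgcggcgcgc
Ube2c: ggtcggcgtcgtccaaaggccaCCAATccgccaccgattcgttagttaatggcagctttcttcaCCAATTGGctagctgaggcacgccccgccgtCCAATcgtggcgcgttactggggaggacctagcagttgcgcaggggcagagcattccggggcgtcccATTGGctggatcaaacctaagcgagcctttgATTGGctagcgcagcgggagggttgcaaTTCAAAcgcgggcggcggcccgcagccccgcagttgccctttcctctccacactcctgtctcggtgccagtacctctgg
Aurka held 2 CCAAT matches, at -51 and -19 from the start, and 1 CHR match at 32. Ube2c held 6 CCAAT matches, of which 2 on opposite strands overlap, and 1 CHR match at -29, and Birc5 held neither. These are matches of letters, not measured binding sites.

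Because mitotic cells were unevenly spread, the ends were also compared within cycle strata, both without the granulocyte class. Strata were set on G2 and M phase UMIs among 3000 per cell, whereas levels within them were summed at full depth. The stratum with 0 such UMIs (451 Flt3- Ly6d+ and 475 Flt3+ Ly6d- HSA- cells) thus still held some at full depth. The list summed there to 124 CPM in Flt3- Ly6d+ and 166 CPM in Flt3+ Ly6d- HSA- cells. Of 11 members measured there, 5 were at least 1.5-fold lower and 1 higher. Of the 61 higher genes, 56 were still at least 2-fold higher in this stratum and 0 stood on the other side. Of the 70 lower genes, 67 had a ratio there, 41 were still at least 2-fold lower and 7 stood on the other side. By the size rule 77 of 5734 genes (1.34%) were then higher and 47 (0.820%) lower. Among cells with 5 or more such UMIs (89 and 381 cells), a stratum added after the values were seen, 42 of the 61 were still at least 2-fold higher and 1 stood on the other side, and 21 of the 70 were still 2-fold lower, with a median log2 ratio of -0.26. There 49 of 5680 genes (0.863%) were higher and 40 (0.704%) lower. The 61 and 70 genes were called from sums that include the cells of both strata, so these recounts are not independent of the calls.

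Tcf7, Il2ra, Flt3, Hmga2 and Gata3 kept their side in both strata. Tcf7 stood at 235 against 47.0 CPM in cells with 0 mitotic UMIs among 3000 and at 144 against 22.3 CPM in the mitotic stratum. Il2ra stood at 35.7 against 0.968 and at 15.1 against 0.238 CPM, Flt3 at 13.9 against 108 and at 16.3 against 82.9 CPM, and Hmga2 at 8.78 against 50.7 and at 15.1 against 57.0 CPM. Gata3 was 1.502-fold (1.20 to 1.88) higher in the first stratum and 2.26-fold (1.67 to 3.03) higher in the second. Ube2c stood at 445 against 535 CPM and Mki67 at 422 against 365 CPM within the mitotic stratum. The strata are defined by the UMIs of the 28 G2 and M phase genes, so the near-equal levels of these genes there follow from the selection and are no finding; the same choice bears on the mitotic genes among the 70 lower ones. Of 29 S phase genes, 0 were 1.5-fold apart in the mitotic stratum. The strata were not set by these genes but select cells by cycle state, so their levels there are not independent of the selection. In the stratum with 0 mitotic UMIs among 3000, 17 of 28 measured S phase genes were still at least 1.5-fold lower and 0 higher (median -0.67). T-lineage regulators had a median of 0.36 in both strata, with 5 of 13 higher and 1 lower in the first and 4 of 13 higher and 0 lower in the second. The shares of all genes that were 1.5-fold higher and lower were 7.01% and 5.73% in the first stratum and 6.98% and 5.96% in the second.

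The granulocyte class held nearly all UMIs of several genes with large ratios on the lower side when all cells were summed. Elane, neutrophil elastase, had 15 UMIs (1.41 CPM) in Flt3- Ly6d+ cells and 14991 UMIs (609 CPM) in Flt3+ Ly6d- HSA- cells, 99.4% of them in the class, and stood at 1.42 against 3.99 CPM without it. Prtn3, Ctsg, Ms4a3, Ly6c2 and Anxa3, further genes of granulocytes and monocytes, were 87.8-fold, 13.97-fold, 442-fold, 66.1-fold and 32.8-fold lower with all cells, with 91.6% to 99.6% of their UMIs in the class; Ly6c2 has a near-identical copy, so its counts are uncertain. Of 12 measured granulocyte and monocyte markers 11 were lower and 0 higher with all cells (median -3.77), beside 6.13% and 7.14% of all genes. Without the class 6 were measured, of which 2 were higher, 1 lower and 3 within 1.5-fold (median -0.12). The shares of all genes were then 6.35% higher and 5.28% lower. The summed level of the 14 markers was 508 CPM in Flt3- Ly6d+ cells and 3155 CPM in Flt3+ Ly6d- HSA- cells, and 507 and 399 CPM without the class.

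Mpo, myeloperoxidase, turned round: it was 2.69-fold lower with all cells, at 349 against 939 CPM, and 1.63-fold higher without the class, which held 79.6% of its UMIs in the Flt3+ Ly6d- HSA- sort. A Mpo UMI was found in 56.1% of Flt3- Ly6d+ and 44.1% of Flt3+ Ly6d- HSA- cells. The signalling adaptor Fcer1g, shared by myeloid, NK and mast cells, was 1.88-fold higher with all cells and 4.05-fold (3.68 to 4.47) higher without the class, and Cebpb, a myeloid transcription factor, 1.66-fold and 2.52-fold. Anxa2, Ncf1, a subunit of the phagocyte oxidase, Pygl and Atp8a1 also passed the size rule only without the class, at 2.01-fold to 2.32-fold, as did Cnrip1, Gimap6, Sh3bp5 and Trp53i11 on the lower side, at 2.04-fold to 2.18-fold lower. Conversely Rab37, Capn5, Lrp1 and Cd7 were 2.03-fold to 2.19-fold higher with all cells and 1.89-fold to 1.96-fold higher without the class. The class is defined by the 14 markers, so their drop on its removal follows from the filter and is no finding.

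**Figure D4:**
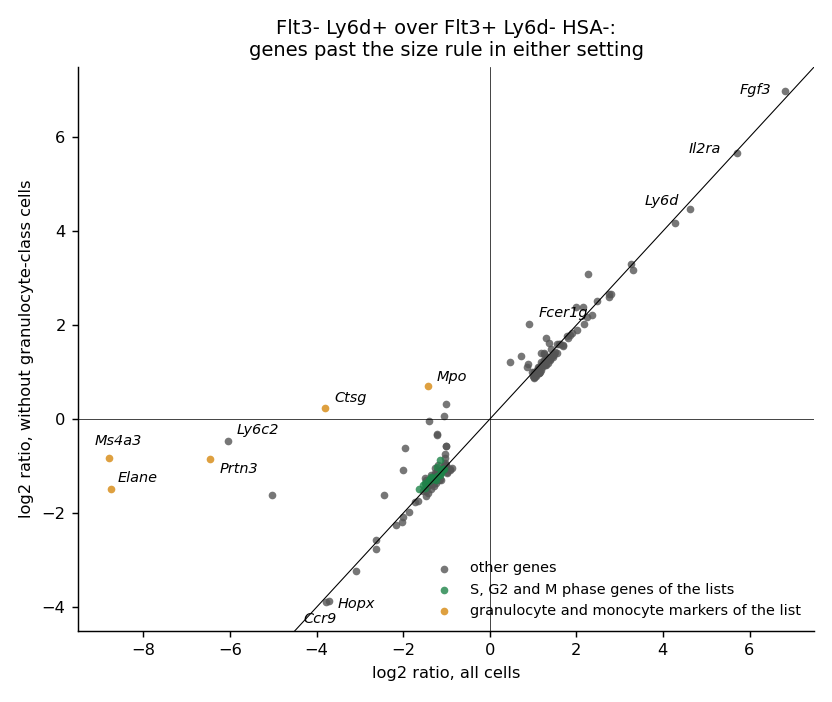
Log2 ratio, Flt3- Ly6d+ over Flt3+ Ly6d- HSA-, with all cells (x axis) and without the granulocyte class (y axis), for the genes past the size rule in either setting. Elane, Ms4a3, Prtn3, Ctsg and Mpo lie off the diagonal, and Mpo (-1.43 with all cells, 0.71 without the class) and Ctsg (-3.80 and 0.24) cross 0.

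Markers of other cell types were checked beside these results. Of 8 measured NK and innate lymphoid markers, 5 were at least 1.5-fold higher and 0 lower (median 0.84; 5 and 0 without the class, median 0.79), beside 7.14% and 6.13% of all genes (6.35% and 5.28% without the class). The higher ones were Gzmb (59 against 8 UMIs), Tyrobp, an adaptor found in 81.1% against 53.5% of cells (2.38-fold), Fcer1g, Rora (2.06-fold) and Id2 (1.71-fold), while Nkg7 stood at 358 against 441 CPM. The defining NK genes Ncr1, Tbx21 and Eomes were at 0 UMIs in both sorts, and the summed level of the 16 markers was 1289 CPM in Flt3- Ly6d+ and 865 CPM in Flt3+ Ly6d- HSA- cells. Of 8 measured dendritic cell markers 3 were higher and 3 lower (summed level 221 against 288 CPM; 4 and 1 without the class), beside those same shares. In the Flt3- Ly6d+ sort 10 cells accounted for 91.8% of Cd74 UMIs and 94.6% of H2-Aa UMIs. The defining dendritic markers Xcr1 and Batf3 had at most 1 UMI in either sort. Of 10 B cell markers only Cd79b was measured (48.5 against 43.9 CPM), and Ms4a1 was at 0 in both sorts. For gamma delta T cells 3 markers were measured and 0 differed by 1.5-fold, for later thymocytes 1 (Cd5), and for thymic epithelium 1 of 8 (Ccl25, 20.9 against 18.7 CPM), with Foxn1 and Psmb11 at 0 UMIs in both sorts. Their part in the results above was not tested.

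Levels in the other gated fractions were set on a scale given by the ends, without the class, and most lower genes lay outside it. For each gene a position was computed on log2(CPM + 0.5), with 0% at the Flt3+ Ly6d- HSA- level and 100% at the Flt3- Ly6d+ level. For the 61 higher genes the Flt3- Ly6d- HSA- fraction stood at a median of 85.4% (quartiles 70.7 to 93.9) and the Flt3+ HSA+ fraction at 15.6% (-2.75 to 20.8). In the Flt3- Ly6d- HSA- fraction 50 of the 61 lay between the ends and nearer to the Flt3- Ly6d+ one, 6 lay beyond that end, 4 were nearer to the Flt3+ Ly6d- HSA- end and 1 lay beyond it. In the Flt3+ HSA+ fraction 43 lay between the ends and nearer to the Flt3+ Ly6d- HSA- one, 17 lay beyond that end and 1 was nearer to the Flt3- Ly6d+ end. Fgf3 stood at 4.57 and 0.618 CPM in the Flt3- Ly6d- HSA- and Flt3+ HSA+ fractions without the class, Il2ra at 11.6 and 2.18 CPM and Ly6d at 13.98 and 14.4 CPM, all well below their Flt3- Ly6d+ levels. Cpa3, at 246 and 35.2 CPM, was above its Flt3- Ly6d+ level of 219.6 CPM in the Flt3- Ly6d- HSA- fraction, and Muc13, at 24.5 and 7.54 CPM, was below its level of 32.2 CPM. For the 70 lower genes the Flt3- Ly6d- HSA- fraction lay beyond the Flt3- Ly6d+ end for 45 (median 146%), between the ends and nearer to it for 18, and nearer to the other end for 7. The Flt3+ HSA+ fraction lay beyond the Flt3+ Ly6d- HSA- end for 47 (median -57.0%) and between the ends and nearer to it for 23. Aurka, for example, stood at 13.1, 8.24, 62.7 and 34.8 CPM in Flt3- Ly6d+, Flt3- Ly6d- HSA-, Flt3+ HSA+ and Flt3+ Ly6d- HSA- cells without the class. Hopx and Ccr9 were ordered without such a reversal, at 1.70, 5.82, 13.3 and 25.2 CPM and at 2.74, 5.91, 13.4 and 39.99 CPM.

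Single cells of the ends overlapped in list totals although their sums differed. Without the class, and with every cell at 3000 UMIs, the 825 Flt3- Ly6d+ cells held a median of 4 UMIs of T-lineage regulators (quartiles 3 to 6) and the 1338 Flt3+ Ly6d- HSA- cells a median of 2 (1 to 4), with 5 or more in 41.2% and 14.1% of cells. Totals of stem and progenitor regulators were closer, at medians of 5 (3 to 7) and 6 (4 to 8) UMIs. S phase totals had medians of 4 (2 to 8) and 7 (4 to 13) UMIs, and Myc-linked growth genes 12 (9 to 16) and 16 (12 to 20.75) UMIs. The histograms of these totals show broad, overlapping distributions for T-lineage and stem regulators and a long upper tail of G2 and M phase UMIs in the Flt3+ Ly6d- HSA- sort.

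**Figure D5:**
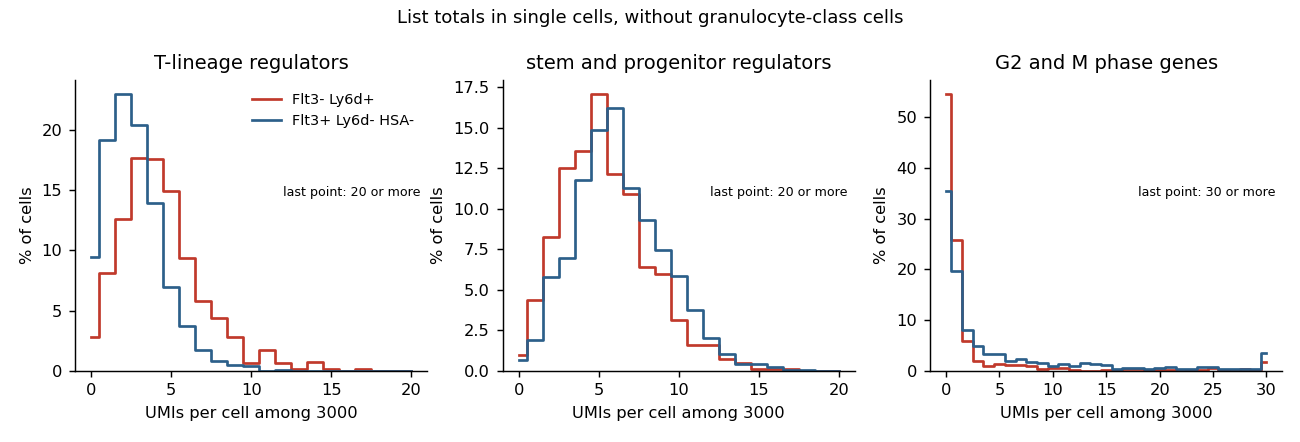
Share of cells (y axis, percent) by number of UMIs of a list among 3000 UMIs (x axis), for T-lineage regulators, stem and progenitor regulators and G2 and M phase genes, in Flt3- Ly6d+ (red) and Flt3+ Ly6d- HSA- (blue) cells without the granulocyte class; the last point pools higher totals. The T-lineage curve of Flt3- Ly6d+ cells lies to the right of that of Flt3+ Ly6d- HSA- cells, with medians of 4 and 2 UMIs.

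Within the Flt3- Ly6d+ sort, cells with a Ly6d UMI (378 cells, median depth 11605) and without one (448 cells, median depth 11417) were set side by side. Tcf7 was found in 46.3% (41.2 to 51.5) and 41.3% (36.7 to 46.01) of them, Il2ra in 9.26% (6.53 to 12.6) and 7.14% (4.94 to 9.93), Cd24a in 43.4% and 42.0%, Cpa3 in 40.5% and 41.3%, and Dntt in 72.5% and 72.3%. Itga4 was found in 64.0% (59.0 to 68.9) and 54.0% (49.3 to 58.7), and Fgf3 in 7.14% (4.76 to 10.2) and 3.12% (1.72 to 5.19). The intervals cover counting error only, and cells of 1 sort are not replicates, so none of these differences was tested. At full depth 65.9% of Flt3- Ly6d+ cells had a Ly6d UMI, so some of the 448 cells did hold one. The split thus rests in part on sampling, and similar shares do not show independence from Ly6d RNA. A Flt3 and a Ly6d UMI shared a cell in 16 of 826 Flt3- Ly6d+ cells (1.94%) and 13 of 1405 Flt3+ Ly6d- HSA- cells (0.925%).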

How the data were processed

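RNA of single cells was measured with droplet-based 3' end libraries (10x Chromium v3), as 1 cDNA library and 1 hashtag library that share all 8293 barcodes; the labels do not say how many mice each sort pooled. Per the submitters' processing notes, the authors used Cell Ranger 3.0 and the mm10 build. The deposited matrix holds counts, whole UMI counts for 27998 genes with no normalization. A second deposited table gives hashtag counts of each barcode, and the labels do not say if these are UMIs. Tags that matched no hashtag made up 42.7% of the hashtag counts of both sorts. The authors' assignment of barcodes to sorts was used as deposited, and the assigned hashtag was the most abundant in 100% of cells of both sorts. Doublets were not called, no clustering was done, and no cell filter was applied beyond the assignment.

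Counts were summed per sort and scaled to 1000000 (CPM) in Python 3.11.15 with numpy 2.4.6, pandas 2.3.3 and scipy 1.17.1. Ratios carry binomial 95% intervals; a count of 0 was set to a floor of 3 counts and the ratio read as a bound. Cells were thinned to 3000 UMIs at random (seed 20). A list member was measured at 5 CPM in either sort. Named genes were the 15 with the largest ratios in each direction past the size rule with and without the class, up to 6 per direction past it in 1 setting only, gate genes and list members; predicted, clone-named, mitochondrial and ribosomal protein genes were counted and not named. The 24 lists, members and rules were chosen with earlier results of these data known. A few list members are counted in their lists, but their own values are not reported here. The size rule was checked on simulated data with known folds.

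Alternatives were edgeR 4.0.16 TMM factors and DESeq2 1.42.0 size factors (R 4.3.3), equal weight per cell, thinned counts, totals that omit mitochondrial and ribosomal protein genes, a cell filter (1000 genes or more, mitochondrial UMIs below 10%), omission of the deepest 5% of cells, a hashtag filter (80% or more of 20 or more counts), cycle strata and other thresholds. GENCODE M21 held 27645 of the gene identifiers. Promoter sequences are RefSeq's; Ly6d, Cd24a, Cd7 and Ccna2 have no window in the table used.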

Additional observations from a re-analysis of the deposited data

How the results depend on the processing

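With all cells, 74 genes were higher and 95 lower by the size rule. Across edgeR TMM factors, DESeq2 size factors, equal weight per cell, thinned counts, leaving out the class, the cell and hashtag filters, omission of the deepest cells and the 5% rule at full depth, the counts stayed within 63 to 90 higher and 75 to 114 lower, and the largest shift of the median of all genes by a scaling was -0.06 (log2). The hashtag filter removed no cell of either sort, so its counts and ratios repeat the main setting and are no separate check. Totals that omit mitochondrial and ribosomal protein genes gave 117 higher and 116 lower genes. A minimum of 50 CPM gave 33 and 46, a minimum of 5 CPM with no share rule 186 and 224, and a 95% interval wholly past 2-fold 51 and 59. In cells with 0 mitotic UMIs among 3000, class left out, 77 genes were higher and 47 lower. Of these, 57 and 28 were among those called with all cells. In the mitotic cells, a choice made after the values were seen, 49 were higher and 40 lower. Of these, 36 and 19 were among those called with all cells. Over all alternatives, 2302 gene ratios stayed within their counting interval, 736 left it on the same side or from within the fold limit, and 54 past that limit changed sign. Of the list medians, 198 moved by less than 0.1, 76 moved further, and 1 that lay past 1.5-fold with all cells changed sign. Sign changes of medians within 1.5-fold are not in that 1, and the following are examples. The S phase median was -0.56 with all cells and 0.11 in mitotic cells, and that of cytokine receptors 0.29 and -0.04. Likewise, medians were 0.33 and -0.0082 for immediate early genes and -0.11 and 0.05 for homing and adhesion receptors. For D cyclins and inhibitors they were 0.17 and -0.03. Without the class, the median of mast cell markers was 2.73 (-0.18 with all cells) and that of dendritic cell markers 0.51 (-0.06 with all cells). That of gamma delta T cell markers was then -0.09 (0.07 with all cells).

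The log2 ratios that changed sign follow; the cause was not tested. Without the class they were Ccr2 0.0080, Cebpe 2.87, Ctsg 0.24, Hdc 0.16, Irf8 0.99, Mpo 0.71 and S100a8 0.058. Without the deepest 5% of cells they were Irf8 0.40 and Mpo 0.069. In cells with 0 mitotic UMIs among 3000 and no class they were Bub1b 0.69, Ccr2 0.22, Cd74 -1.13, Cdca3 0.34 and Cebpe 1.596. Further ones in these cells were Cenpe 0.18, Cenpf 0.55, Ctsg 0.72, Irf8 1.02, Kif20b 0.63 and Ly6c2 0.41. The remaining ones there were Mpo 0.84, Nusap1 0.011, Plk1 0.27, Prtn3 0.75 and granulocyte and monocyte markers median 0.73. In mitotic cells without the class they were Aurkb 0.088, Bbc3 -0.62, Btg1 -0.012, Ccnb2 0.014, Ccr2 0.19, Cdc45 0.11, Cdc6 0.14, Cenpe 0.061, Clspn 0.14, Ctsg 0.88, Dscc1 0.26, Gins2 0.20, Gmnn 0.027, Hdc 0.55, Hells 0.078, Hmmr 0.15, Irf8 1.44, Kif11 0.11, Kif20b 0.22, Mcm5 0.012, Mki67 0.21, Mpo 0.70, Pfkp 0.56, Prc1 0.16, Rora -0.41, Rrm2 0.26, Top2a 0.19, Tyms 0.11 and Uhrf1 0.14, and the Capn5 log2 ratio was -0.00602.

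No paired analysis was possible because there was 1 sort of each kind, so differences between the sorts have no replicate check. Levels under 5 CPM and shares of few cells rest on few UMIs, so small differences among them could not be ordered at this depth.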

Other observations

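Growth and sugar metabolism genes were read beside all genes, of which 7.14% were 1.5-fold higher and 6.13% lower in Flt3- Ly6d+ cells (6.35% and 5.28% without the class). Of 15 measured glycolysis genes 5 were lower by 1.5-fold or more in Flt3- Ly6d+ cells and 0 higher (median log2 ratio -0.41), but the class held 25.4% of the Eno1 and 33.5% of the Pgam1 UMIs of the Flt3+ Ly6d- HSA- sort, and without it Eno1 (0.643-fold) was the only one of 14 that passed 1.5-fold (median -0.36), a share near that of all genes. Of 16 Myc-linked growth genes, Srm, spermidine synthase, was lower (0.653-fold) and 0 were higher (median -0.36), likewise near the share of all genes, while Myc itself stood at 90.2 CPM in Flt3- Ly6d+ cells and 82.2 CPM in Flt3+ Ly6d- HSA- cells; without the class 0 of 16 passed.

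Of 14 immediate early genes, Ier3 (2.41-fold, 167 against 69.4 CPM) and Fosb (1.85-fold) were higher and 0 lower (median 0.33; 0.23 without the class), beside 7.14% and 6.13% of all genes. Among 14 interferon response genes, Ifitm1 was 1.602-fold higher at 738 against 461 CPM, while Ifitm3, a related membrane protein gene, was 0.654-fold at 253 against 387 CPM (median -0.23); without the class Ifitm1 was 1.49-fold. Of 9 survival and death genes, Bbc3, which encodes the death-promoting protein PUMA, was 1.55-fold higher and 0 were lower (median 0.11).

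Neighbours of Fgf3 on chromosome 7 were looked up after its value was seen. Within 200 kb, Fgf4, Fgf15 and Ano1 had 0 UMIs in both sorts. Oraov1 stood slightly higher, at 11.4 CPM in Flt3- Ly6d+ cells and 9.79 CPM in Flt3+ Ly6d- HSA- cells, and Ccnd1 lower, at 15.9 and 39.5 CPM. A regional cause of the Fgf3 difference was not tested.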
